A study of Nasonia vitripennis with 140 samples.

Results

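The odorant receptor genes described here are the 157 genes of Nasonia vitripennis whose symbol is Or and a number and whose mean level over control libraries was highest in adult heads, at 0.2 CPM or more (CPM, a gene's counts scaled to a common library total). The count table holds 214 such symbols among 15471 genes. Of these, 160 had their highest mean in heads and 54 did not, and 3 head-peaking genes fell under the minimum. Just inside it stood Or269 at 0.204 CPM, Or286 at 0.241 CPM and Or66 at 0.286 CPM, and just outside Or25 at 0.193 CPM, Or100 at 0.153 CPM and Or46 at 0.139 CPM. The choice averaged both sexes of the control heads, so the genes were chosen by their mean levels in GFP libraries and by no dsx RNAi library. A receptor high in a single sex could pass through that sex, and the same GFP heads are compared between the sexes below. Or269, Or286 and Or66, just inside the minimum, were all higher in female heads (log2 fold change, male over female, -2.79, -1.42 and -1.94).

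Insect odorant receptors are membrane proteins of olfactory sensory neurons, which sit mostly in the antennae. A tuning receptor binds odorants and forms an ion channel together with a shared co-receptor called Orco, and a neuron usually carries a single tuning receptor or a few. Ants, bees and wasps have large families of these receptors, often as rows of neighbouring genes that arose by duplication. Parasitoid wasp females use odours to find hosts, and males and females use them in mating. In the published naming of the Nasonia receptors, Or1 is the counterpart of Orco of Drosophila. The odorants that the other receptors bind are not described in the labels.

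All wasps were of the laboratory strain AsymCX. Each sex was injected with double-stranded RNA (4 µg/µl) against doublesex (dsx), a transcription factor gene of sex determination, or against green fluorescent protein (GFP) as the control. Heads, thoraces and abdomens came from adults taken 1 day after emergence that had been injected 8 days after oviposition. Pupae of day 11, larvae of day 9 and larvae of day 7 were collected 3 days after injection, 3 individuals to a sample. Day 1 embryos were offspring of injected mothers, collected in batches of 100, with male samples from virgin mothers and mostly female samples from mated ones. The 7 stages or body parts, 2 sexes and 2 dsRNAs gave 28 groups of 5 libraries. How many adults went into a head library, and whether the antennae stayed attached to the heads, is not stated clearly in the labels. P-values measure the spread between these samples.

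The 20 head libraries held 67.1 to 96.6 M counts each, so 0.2 CPM stood for 13.4 to 19.3 reads. The opsin gene Lop1, a photoreceptor gene, stood at 4710 CPM in GFP heads and at 43.4 CPM or less on average at every other stage. The targeted gene Dsx was not lower in the dsx-labelled heads. Its level was 182 to 209 CPM in GFP female heads and 194 to 217 CPM in dsx-labelled ones. Male heads held 235 to 267 CPM of Dsx with the GFP label and 153, 277, 309, 335 and 278 CPM with the dsx label (log2 fold change 0.06, SE 0.14, adjusted p 0.899, edgeR). The groups are therefore called dsx-labelled, after their labels. GFP male heads 1 and 2 and dsx-labelled male head 1 stood apart from the other male heads. They held 706 to 774 CPM of the synaptic gene Syt1, against 1085 to 1218 CPM in the other 7 male heads. The odorant-binding protein gene OBP77 stood at 13.9 to 16.9 CPM in these 3 and at 1.89 to 4.54 CPM in the other 7, while female heads held 11.2 to 20.6 CPM. In bulk libraries, fewer cells of a type and less RNA per cell cannot be told apart.

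The receptors were low in abundance apart from Or1. In GFP heads Or1 averaged 285 CPM, which was 45.7% of the 625 CPM summed over all 157 receptors. The median receptor stood at 1.45 CPM, with 43 receptors under 1 CPM, 102 from 1 to under 5 CPM and 12 at 5 CPM or more. After Or1 the most abundant were Or296 (16.9 CPM), Or243 (12.2 CPM) and Or93 (11.1 CPM), followed by Or217 (9.00 CPM), Or163 (7.61 CPM) and Or141 (7.55 CPM). CPM is not divided by transcript length, so this order is one of reads and not of transcripts.

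Outside the head the summed level was between 27.5 CPM in embryos and 65.4 CPM in day 9 larvae. Pupae held 56.9 CPM, thoraces 49.2 CPM, day 7 larvae 35.4 CPM and abdomens 32.5 CPM. The median receptor reached 11.8% of its head level in pupae and 11.1% in day 9 larvae, but 4.69% in day 7 larvae, 4.36% in thoraces, 3.31% in abdomens and 2.98% in embryos. The second-highest stage was the pupa for 54 receptors, day 9 for 46, the thorax for 24, day 7 for 14, the abdomen for 13 and the embryo for 6. At that stage the receptors stood at 3.30% of their head level for Or1 and up to 99.3% for Or35, with a median of 18%. These values in GFP libraries chose the genes and are a description.

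**Figure D1:**
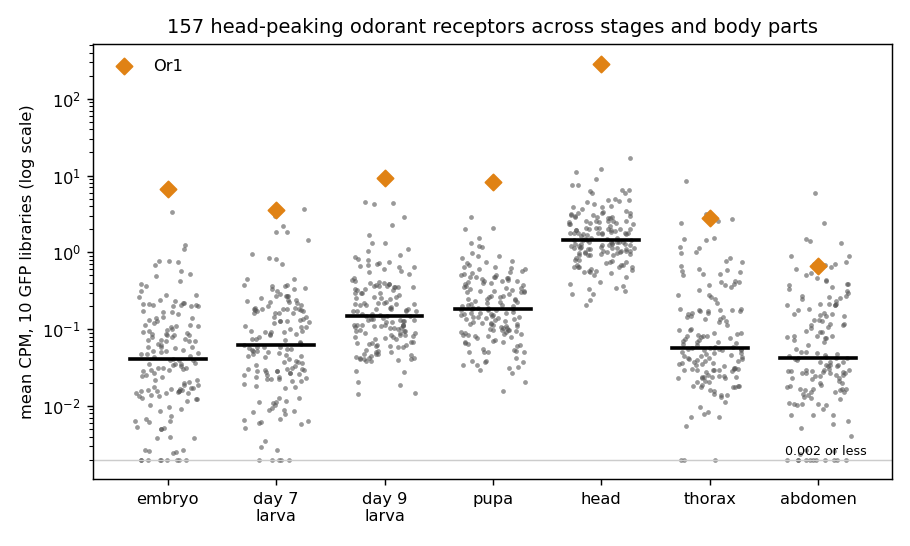
Mean level of each of the 157 receptors (points) at the 7 stages or body parts, as CPM over 10 GFP libraries on a log scale; bars mark the median receptor, orange diamonds mark Or1, and values of 0.002 CPM or less are drawn on the grey line. The median was 1.45 CPM in heads and at most 0.182 CPM elsewhere, while Or1 stood at 285 CPM in heads and at 9.42 CPM or less elsewhere.

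A few receptors had another stage close to the head. Or35 stood at 4.32 CPM in heads and 4.29 CPM in day 9 larvae. Or89 averaged 0.685 CPM in heads and 0.657 CPM in abdomens, Or115 1.49 and 1.39 CPM in the same parts, Or125 2.58 CPM in heads and 2.27 CPM at day 9, and Or6 1.09 CPM in heads and 0.957 CPM at day 7. The dsx-labelled libraries, which had no part in the choice, placed 152 of the 157 receptors highest in heads. The exceptions were Or35, Or77, Or192 and Or295, highest at day 9, and Or6, highest at day 7.

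The difference between heads and the other parts was then tested in those dsx-labelled libraries. Of 156 receptors tested, 155 were higher in heads than in thoraces (37.7% of all genes tested were called in that direction), 153 were higher than in abdomens (39.2%) and 153 were higher than in pupae (43.3%). The edgeR test called 0 receptors lower in heads in any of these comparisons (34.6%, 47.1% and 38% of all genes), and the numbers at an unadjusted p below 0.05 were the same 155, 153 and 153. Median log2 fold changes over the receptors were 4.95 against thoraces, 5.20 against abdomens and 3.05 against pupae. Or111 was not called against thoraces. Or62, Or115 and Or295 were not called against abdomens, and Or6, Or35 and Or201 were not called against pupae. Or269 had too few counts to be tested.

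The sexes differed in the heads of GFP controls for 86 of the 157 receptors. Females had the higher level for 63 of them (40.1%), where 16% of all 12136 genes tested were called in that direction. Males had the higher level for 23 (14.6%), where 17.8% of all genes were called. The median log2 fold change, male over female, was -0.35 over the receptors and 0.00 over all genes tested. Libraries were also scaled on the summed counts of all 214 Or symbols instead of all genes. The split was then 31 higher in males and 47 higher in females, and the median of all genes moved to 0.14. Or1 weighed on that scale, averaging 47.6% of the sum over the 157 receptors in GFP female heads and 43.2% in male ones. The sum averaged 674 CPM in females and 576 CPM in males, and 352 and 326 CPM without Or1. The libraries of the sexes did not overlap for 52 of the female-higher receptors (13.8% of all genes were called without overlap in that direction) and for 15 of the male-higher ones (9.23%).

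The larger differences lay mostly on the female side. At least 4-fold higher in females were 21 receptors (1.66% of all genes), and 2 were at least 4-fold higher in males (1.31%). Between 2-fold and 4-fold there were 20 female-higher receptors (2.64%) and 9 male-higher ones (2.56%). Under 2-fold the counts were 22 (11.7%) and 12 (14%). The 71 receptors not called had log2 fold changes from -0.63 to 0.74. Of the 12 receptors at 5 CPM or more, 7 were higher in males, 2 were higher in females and 3 were not called.

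**Figure D2:**
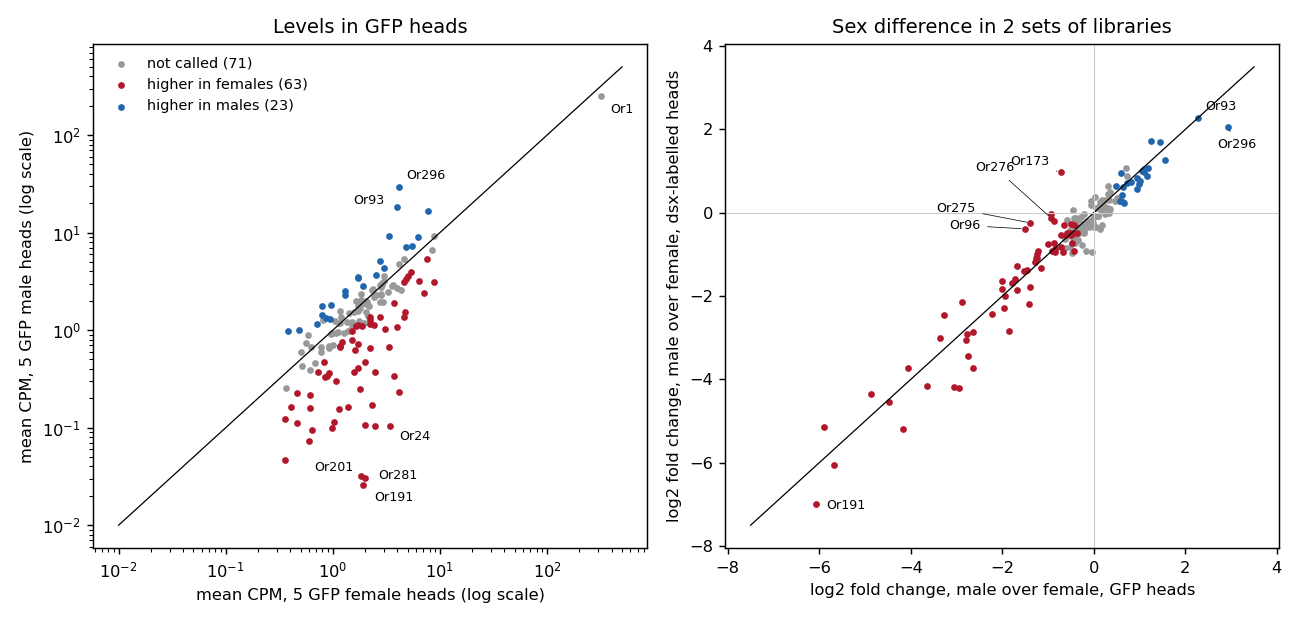
Left, mean CPM of each receptor in 5 GFP male heads against 5 GFP female heads on log scales, coloured by call (63 higher in females, 23 higher in males, 71 not called). Right, log2 fold change of male over female in dsx-labelled heads against that in GFP heads, with the line of equal values; Or173 lies at -0.73 in GFP heads and 0.97 in dsx-labelled heads.

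Or1, the co-receptor gene, did not separate the sexes in control heads. Its levels in GFP female heads were 326, 300, 258, 380 and 341 CPM. In GFP male heads they were 233, 331, 247, 238 and 202 CPM. The ranges overlapped through male head 2, and the log2 fold change of -0.27 (SE 0.13) was not called (adjusted p 0.129, edgeR). Without GFP male head 2 it was -0.38 and was called (adjusted p 0.0298). It was also called without the 3 male heads that stood apart (-0.38, adjusted p 0.015) and with the leading component of variation as a covariate (-0.28, adjusted p 0.0405). In dsx-labelled heads, females held 360, 292, 357, 351 and 299 CPM and males 299, 202, 224, 249 and 178 CPM. That difference was called (-0.44, SE 0.13, adjusted p 0.0179), but not when dsx-labelled male head 5 was left out (-0.37, adjusted p 0.0533) or when libraries were scaled on the receptors (-0.20, adjusted p 0.0947). Or1 averaged 46.8% of the summed receptor level in dsx-labelled female heads and 40.7% in dsx-labelled male heads. Scaling on that sum takes out part of its own difference, so that run cannot judge the difference of Or1.

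Receptors higher in males included the most abundant tuning receptors. Or296 stood at 3.94, 4.11, 3.87, 4.21 and 4.60 CPM in GFP female heads. In GFP male heads it stood at 23.5, 26.2, 34.2, 29.8 and 34.6 CPM. Every male library was above every female one (log2 fold change 2.93, SE 0.11, adjusted p 1.58e-13, edgeR). Or93 held 4.52, 3.75, 3.70, 2.86 and 5.02 CPM in females and 25.6, 22, 15.9, 14 and 13.3 CPM in males. Its groups did not overlap either (2.28, SE 0.20, adjusted p 5.42e-08), and the 2 highest males were 2 of the heads that stood apart in Syt1. Without those heads and dsx-labelled male head 1, taken out together, Or93 differed by 1.96, and 22 receptors were higher in males and 65 in females.

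The other male-higher receptors differed by less. Or162 averaged 3.33 ± 0.445 CPM in females and 9.25 ± 0.683 CPM in males (SD, n = 5 each), with no overlap and a log2 fold change of 1.57 (SE 0.13). Its neighbour Or163 averaged 6.30 ± 1.48 and 8.92 ± 0.773 CPM (0.59, SE 0.16), with overlapping libraries. Or243 averaged 7.77 ± 1.22 CPM in females and 16.6 ± 4.44 CPM in males (1.19, SE 0.18). Or153 (1.45), Or62 (1.25), Or71 (1.16) and Or92 (1.10) completed the 8 largest differences without overlap, all at group means under 4 CPM. The remaining male-higher calls of at least 2-fold were Or85, Or103 and Or124. Those under 2-fold were Or12, Or81, Or110, Or134, Or146, Or147, Or163, Or168, Or224, Or292, Or300 and Or301.

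Several receptors were close to absent from male heads. Or191 stood at 2.23, 1.87, 1.74, 2.27 and 1.52 CPM in GFP females, and at 0, 0.0311, 0.0726, 0.0125 and 0.0136 CPM in GFP males (log2 fold change -6.08, SE 0.40, adjusted p 8.61e-10, edgeR). Or281 stood at 1.31 to 2.35 CPM in females and 0 to 0.0875 CPM in males (-5.89, SE 0.57, adjusted p 1.77e-07). Or201 averaged 1.84 ± 0.530 CPM in females and 0.0319 ± 0.0112 CPM in males (-5.67, SE 0.43). Or24 averaged 3.44 ± 0.481 and 0.105 ± 0.0788 CPM (-4.88, SE 0.39). In each case every female library lay above every male library. The next were Or203 (-4.48), Or279 (-4.18), Or278 (-4.06) and Or192 (-3.64). Over all 21 receptors that were at least 4-fold higher in females, female means ran from 0.361 to 4.15 CPM and male means from 0.0260 to 0.670 CPM.

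**Figure D3:**
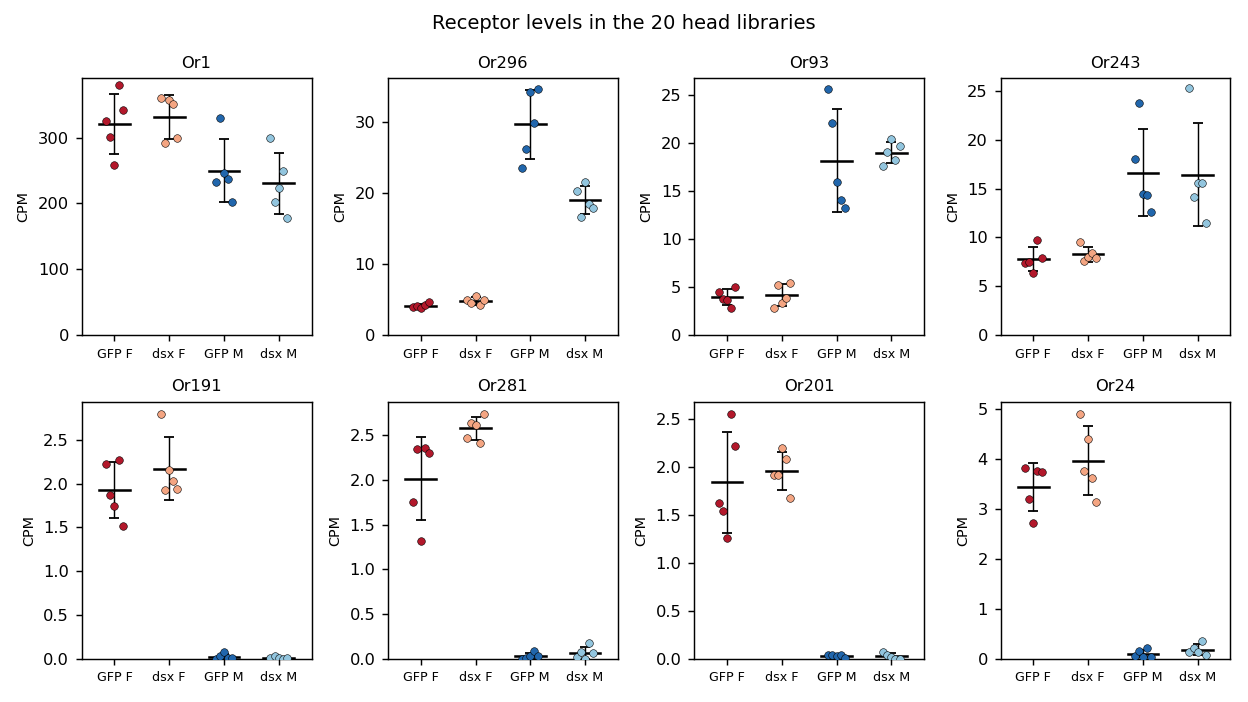
CPM of 8 receptors in the 20 head libraries (points), with the mean and SD of each group of 5 (bars); F is female, M is male, GFP and dsx name the injected dsRNA, and each axis starts at 0. Or296, Or93 and Or243 were higher in males, Or191, Or281, Or201 and Or24 lay near 0 in males, and Or1 overlapped between GFP males and females.

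The rest of that class was Or60, Or61, Or99, Or101, Or102, Or107, Or111, Or196, Or222, Or256, Or269, Or272 and Or280. From 2-fold to under 4-fold higher in females were Or16, Or23, Or44, Or66, Or82, Or89, Or96, Or114, Or122, Or132, Or219, Or229, Or230, Or232, Or241, Or245, Or250, Or253, Or275 and Or286. The most abundant of these was Or275, at 7.45 to 9.80 CPM in females and 2.41 to 4.01 CPM in males (-1.39, SE 0.16, adjusted p 1.84e-06, edgeR). Or187, a female-higher receptor of similar abundance, differed by less, at 7.63 ± 0.806 and 5.30 ± 0.715 CPM (-0.44, SE 0.09). It was not called when libraries were scaled on the receptors (-0.29, adjusted p 0.103).

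The annotation adds an uncertainty to some of these values. Of the 157 receptor genes, 63 overlap another gene in the reference table, and no source used here says whether reads were counted by strand. Or191 and Or192 both overlap LOC100124094, Or201 and Or203 both overlap LOC100680429, Or281 overlaps LOC107980536, Or96 LOC107981071 and Or296 LOC100115687. Or24, Or93, Or162, Or243, Or278 and Or279 overlap no other annotated gene. Reads shared between near copies could also be split or dropped by the counting.

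The same sex differences were examined in the dsx-labelled heads, a separate set of 10 libraries. There 61 receptors were higher in females (38.9%, against 14.3% of all genes) and 22 in males (14%, against 16.3%). The median log2 fold change was -0.30. With libraries scaled on the receptors the split was 46 and 36. A call in both sets of libraries was found for 71 receptors, which is 82.6% of the calls in GFP heads and 85.5% of those in dsx-labelled heads. Of these, 52 were higher in females in both (8.73% of all genes) and 18 were higher in males in both (10.8%). Or173 was called in opposite directions. Across the 157 receptors the log2 fold changes of the 2 sets had a Pearson r of 0.961 and a Spearman rho of 0.915, and 143 had the same sign. The receptors are not independent replicates, and the libraries of a set are shared by all of them.

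The 21 strongly female-higher receptors were again called higher in dsx-labelled females than in dsx-labelled males. Their means in dsx-labelled male heads ran from 0.0144 to 0.621 CPM. Or191 held 0.0149, 0.0284, 0.0145, 0 and 0.0140 CPM there, and Or281 held 0.0149, 0.0711, 0, 0.176 and 0.0698 CPM. Between dsx-labelled and GFP males their log2 fold changes ran from -1.22 to 1.07, and 1 of the 21 was called, which was Or222.

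The dsx label itself was tested within each sex. In male heads 7 receptors were called (8.92% of all genes), and 16 had an unadjusted p under 0.05. Higher in the dsx-labelled males were Or96, Or173, Or275 and Or276, 4 of 157, where 3.97% of all genes were called in that direction. Lower were Or162, Or222 and Or296, 3 of 157, where 4.95% of all genes were called. The median log2 fold change over the receptors was 0.01, and over all genes tested it was also 0.01. In female heads 0 receptors were called by edgeR and 1 by DESeq2 (edgeR called 0.0412% of all genes), while 3 receptors had an unadjusted p under 0.05. The effect of the label differed between the sexes for 5 receptors, where 4.1% of all genes were called.

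Or173 changed by the largest amount. It stood at 1.11, 1.30, 1.21, 1.31 and 1.42 CPM in GFP male heads. In dsx-labelled male heads it stood at 6.78, 3.64, 4.17, 6.15 and 5.07 CPM, all above the GFP males (log2 fold change 2.00, SE 0.20, adjusted p 1.90e-06, edgeR). GFP females held 2.14, 2.35, 2.27, 1.5 and 2.92 CPM and dsx-labelled females 1.88, 2.45, 2.91, 3.48 and 3.22 CPM. Every dsx-labelled male was thus above every female of either label. The sexes differed by -0.73 (adjusted p 0.0084, edgeR) in GFP heads, or -0.59 (adjusted p 0.0507) with libraries scaled on the receptors, and by 0.97 (adjusted p 0.00101) in dsx-labelled heads. The effect of the label differed between the sexes (interaction 1.69, SE 0.28, adjusted p 0.00113).

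Or275 and Or276 are neighbours whose annotated spans overlap, so they may share reads. Or275 held 2.41, 3.23, 4.01, 3.24 and 2.75 CPM in GFP males and 10.7, 7.28, 8.05, 5.81 and 6.02 CPM in dsx-labelled males (log2 fold change 1.25, SE 0.16, adjusted p 3.10e-05, edgeR). The dsx-labelled males overlapped the dsx-labelled females, at 11.7, 8.85, 7.70, 10.3 and 9.01 CPM (sex difference -0.24, adjusted p 0.256). Or276 averaged 1.37 ± 0.131 CPM in GFP males and 2.85 ± 0.553 CPM in dsx-labelled males (1.03, SE 0.14, adjusted p 5.04e-05). Its dsx-labelled females averaged 3.32 ± 0.467 CPM (sex difference -0.13, adjusted p 0.488). The interaction was 1.15 (SE 0.22, adjusted p 0.00481) for Or275 and 0.80 (SE 0.19, adjusted p 0.0221) for Or276.

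Or96 was also higher in dsx-labelled males than in GFP males. It averaged 1.02 ± 0.382 CPM in GFP males, 2.88 ± 0.788 CPM in dsx-labelled males, 3.08 ± 0.304 CPM in GFP females and 4.00 ± 0.429 CPM in dsx-labelled females. The label effect in males was 1.48 (SE 0.21, adjusted p 9.83e-05, edgeR), and the groups of males did not overlap. Its interaction of 1.12 (SE 0.29, adjusted p 0.0335) passed the threshold narrowly. It lost the call with the replicate block (adjusted p 0.0511). It also lost it without any of GFP females 1, 2, 4 and 5, GFP males 1 and 4, dsx-labelled females 1, 2, 3 and 5 or dsx-labelled male 4, where the values ran from 1.04 to 1.13 and the adjusted p from 0.0503 to 0.0675.

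Or296, the leading male-higher receptor, fell in dsx-labelled males. Its levels there were 20.4, 16.6, 21.6, 18.5 and 17.9 CPM, all under the lowest GFP male at 23.5 CPM (log2 fold change -0.67, SE 0.10, adjusted p 0.000267, edgeR). They also stayed above every female, since dsx-labelled females held 4.19 to 5.52 CPM (sex difference 2.06, SE 0.11, adjusted p 4.08e-11). The interaction was -0.87 (SE 0.15, adjusted p 0.00168), and -0.76 (adjusted p 0.0567) with libraries scaled on the receptors. The call between the male groups held in each alternative run.

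Or162 and Or222 were called less firmly. Or162 averaged 9.25 ± 0.683 CPM in GFP males and 6.92 ± 1.17 CPM in dsx-labelled males, with no overlap (log2 fold change -0.44, SE 0.12, adjusted p 0.0284, edgeR). A fit restricted to both male groups lost the call (-0.43, adjusted p 0.0908). It was also lost without GFP male 2, 3 or 4 or dsx-labelled male 2 or 5, with values from -0.43 to -0.35 and adjusted p from 0.0535 to 0.077. Or222 averaged 0.0947 ± 0.0253 CPM in GFP males and 0.0403 ± 0.0184 CPM in dsx-labelled males (-1.22, SE 0.35, adjusted p 0.039). Its call was lost with DESeq2 (-1.25, adjusted p 0.105), with libraries scaled on the receptors (adjusted p 0.143) and without the 3 male heads that stood apart (-0.98, adjusted p 0.185). Leaving out GFP male 1, 2 or 4 or dsx-labelled male 1, 2 or 3 gave -1.25 to -1.01 with adjusted p from 0.0585 to 0.152.

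**Figure D4:**
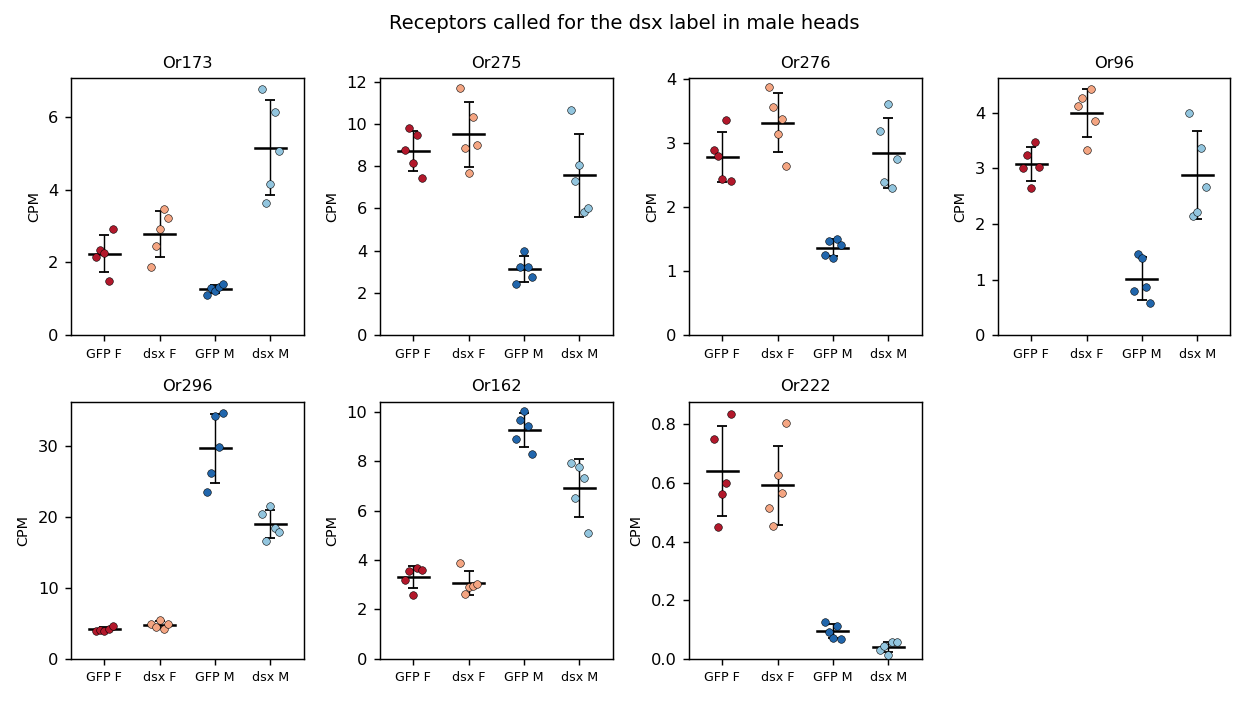
CPM of the 7 receptors called between dsx-labelled and GFP male heads in the 20 head libraries (points), with the mean and SD of each group of 5; F is female, M is male, and each axis starts at 0. In Or173 the dsx-labelled males (3.64 to 6.78 CPM) lie above all females, in Or275, Or276 and Or96 they overlap the dsx-labelled females, and in Or296 (16.6 to 21.6 CPM) they lie between GFP males and females.

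The comparisons of sex in GFP heads and of label in males share the GFP male libraries, so the 2 sets of values are not independent. Of the male heads that stood apart in Syt1 and OBP77, dsx-labelled male head 1 had the highest level of its group for Or173, Or275 and Or96. Without those 3 heads, 6 of the 7 receptors were called, Or222 being lost, and 5 others were added (Or5, Or8, Or29, Or88 and Or218, named after their values were seen).

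Positions in the reference table were used for the order of genes only. By that order 127 of the 157 receptors lay in runs of at least 2 neighbouring Or genes and 30 lay alone. There were 14 runs with 3 or more of the receptors, which held 83 of them. Receptors of a run often differed from each other: 8 of these 14 runs held both a female-higher and a male-higher call, and 0 of the 14 were called female-higher throughout. Among runs with 2 of the receptors, both were called higher in females for Or191 with Or192, Or60 with Or61 and Or114 with Or115. Both were called higher in males for Or162 with Or163. Differences between the means of the 14 runs made up 25.8% of the variance of the log2 sex difference over these 83 receptors. This share is not corrected for the number of runs. Part of it would arise even if receptors were placed in runs at random. On chromosome 4, Or96 was higher in females (-1.51) and its near neighbour Or93 was higher in males (2.28).

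The run on chromosome 1 that holds Or271 to Or283 had the most female-higher calls of the 14, with a median log2 fold change of -1.39. The run of Or99, Or101, Or102 and Or103 had a lower median (-2.82), with 3 female-higher calls and 1 male-higher call. Of the 11 receptors here in the run from Or271 to Or283, 10 were called higher in females: Or271, Or272, Or273, Or275, Or276, Or277, Or278, Or279, Or280 and Or281. Their log2 fold changes ran from -0.48 for Or277 to -5.89 for Or281, and Or283 was not called (-0.51, adjusted p 0.111, edgeR). Of the 6 receptors of the run from Or248 to Or253, 5 were called higher in females. The longest run, 20 Or genes on chromosome 5 whose receptors here reach from Or12 to Or31, gave 6 female-higher calls and 1 male-higher call (Or12) among 16 receptors. Its values ran from -4.88 for Or24 to 0.74 for Or12. These runs were singled out after their values were seen.

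**Figure D5:**
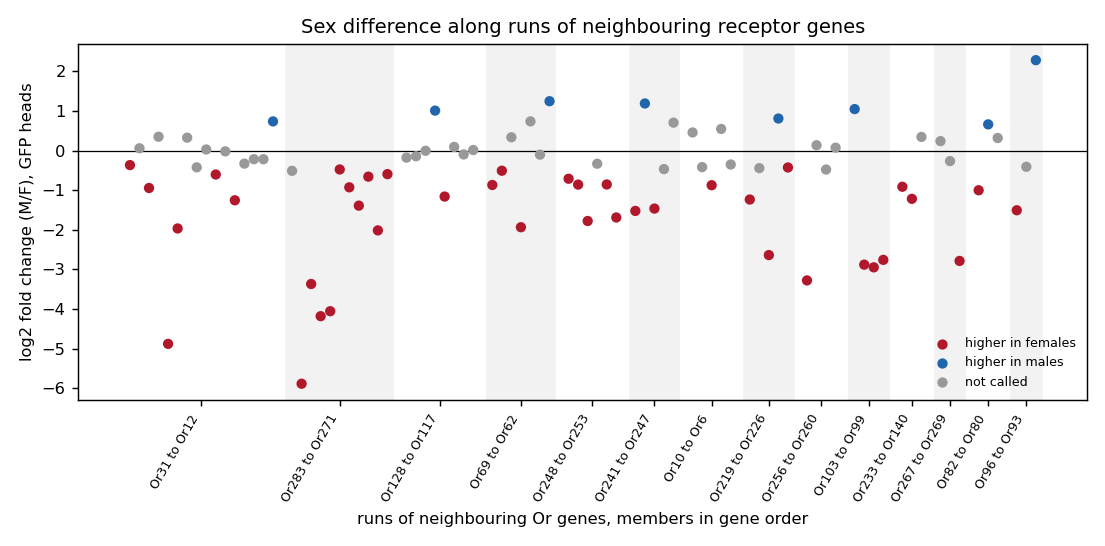
Log2 fold change of male over female in GFP heads for the 83 receptors in the 14 runs with 3 or more of them, in gene order within each run, with points coloured by call. The run from Or283 to Or271 has 10 of 11 points called higher in females, and 8 of the 14 runs hold calls in both directions.

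Pupae showed a female lean with other sizes than heads. Of 125 receptors tested in GFP pupae, 41 were higher in females (32.8%, against 32.2% of all genes) and 15 in males (12%, against 31.6%). At least 2-fold were 40 of the female-higher calls (8.87% of all genes) and 11 of the male-higher ones (12.4%). Of 34 receptors called in both pupae and heads, 28 had the same direction. The matching share over all genes was not computed, so this count shows nothing particular to receptors. The exceptions were Or35, Or114, Or122, Or146, Or271 and Or301. Across the 125 receptors the log2 fold changes of pupae and heads had a Pearson r of 0.533, a description over receptors that share libraries.

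Or1 was the receptor with the highest pupal level. It held 13.3 to 20.1 CPM in GFP female pupae and 0.682 to 1.23 CPM in GFP male pupae (log2 fold change -3.94, SE 0.33, adjusted p 3.53e-09, edgeR). The photoreceptor gene Lop1 stood at 47.0 to 92.6 CPM in the same female pupae and 8.94 to 13.4 CPM in the males, and Syt1 at 211 to 326 and 160 to 196 CPM. The part of these differences in the receptor values was not tested. Each of the 8 receptors with the largest female lean in heads was also higher in female pupae, as in Or278 (0.503 ± 0.130 against 0.0145 ± 0.0102 CPM, -4.90) and Or24 (0.261 ± 0.0612 against 0.0313 ± 0.0416 CPM, -2.94). Others were higher in male pupae: Or119 averaged 0.291 ± 0.160 CPM in females and 2.75 ± 0.308 CPM in males (3.31, SE 0.34, adjusted p 5.87e-08). Or35 averaged 1.29 ± 0.437 and 4.49 ± 0.782 CPM (1.87, SE 0.23, adjusted p 6.17e-07).

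Sex differences in thoraces and abdomens did not follow those of heads. Across the receptors tested, the log2 fold changes had a Pearson r with those of heads of -0.135 in thoraces (58 receptors) and -0.0345 in abdomens (61 receptors), again a description over shared libraries. In GFP thoraces 58 receptors could be tested, of which 10 were higher in males (17.2%, against 17.6% of all genes) and 4 in females (6.90%, against 19.6%). Of the 7 called in both thoraces and heads, Or93 was the 1 with the same direction. In GFP abdomens 61 could be tested, with 31 higher in males (50.8%, against 42.7%) and 13 in females (21.3%, against 44.1%). Of 23 called in both abdomens and heads, 10 had the same direction. For thoraces and abdomens too, the matching shares over all genes were not computed. Receptors with too few counts in these parts were not tested. In the GFP thoraces Syt1 stood at 303 to 376 CPM in females and 382 to 453 CPM in males, and its part in the receptor values was not tested.

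Or93 was male-higher in every adult part and in pupae. It held 2.68 to 4.22 CPM in GFP female thoraces and 11.8 to 15 CPM in male ones (log2 fold change 2.11, SE 0.21, adjusted p 3.44e-07, edgeR). In abdomens it held 0.487 to 0.946 CPM in females and 9.22 to 12.3 CPM in males (4.37, SE 0.20, adjusted p 3.45e-14), and in pupae the difference was 1.67 (SE 0.32, adjusted p 0.00017). It was the receptor here with the highest mean in thoraces (8.51 CPM) and in abdomens (5.90 CPM). Its neighbour Or94 was also higher in male thoraces (0.105 ± 0.112 against 0.715 ± 0.114 CPM).

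Of the 10 receptors higher in male thoraces, 5 belong to the long run on chromosome 5. Or19 stood at 0.0311, 0.0751, 0.0165, 0.206 and 0.0852 CPM in female thoraces and at 3.46, 2.06, 2.68, 2.95 and 3.72 CPM in male ones (log2 fold change 5.15, SE 0.62, adjusted p 3.51e-06, edgeR). In heads Or19 was higher in females (-0.60, adjusted p 0.00483). Or17 averaged 0.0436 ± 0.0636 and 1.94 ± 0.174 CPM in female and male thoraces (5.43, SE 0.94), and Or15 0.202 ± 0.221 and 1.36 ± 0.432 CPM (2.77, SE 0.76). Or16 had no count in 4 of 5 female thoraces and averaged 0.491 ± 0.238 CPM in males (4.07, SE 1.06, adjusted p 0.00534). Or20 averaged 0.135 ± 0.114 and 0.572 ± 0.341 CPM (2.08, adjusted p 0.0307), with overlapping libraries. Its call was lost with the replicate block (adjusted p 0.0547) and without female thorax 2, 3 or 5 or male thorax 1 or 5 (1.76 to 2.04). Female thorax 4 had the highest level among females for each of these 5 receptors. They were singled out after their values were seen.

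Other receptors were higher in male thoraces but in female heads. Or275 averaged 0.772 ± 0.325 CPM in female thoraces and 4.05 ± 0.757 CPM in male ones (log2 fold change 2.46, SE 0.39, adjusted p 7.17e-05, edgeR). In dsx-labelled thoraces Or275 averaged 0.363 ± 0.237 CPM in females and 1.84 ± 0.677 CPM in males. Or173 averaged 0.0606 ± 0.0679 and 0.307 ± 0.123 CPM in GFP female and male thoraces (2.33, SE 0.67, adjusted p 0.0107). Or141 was higher in females in thoraces (3.90 ± 0.695 against 1.53 ± 0.566 CPM) and in abdomens (1.44 ± 0.277 against 0.330 ± 0.147 CPM), and not called in heads (-0.28, adjusted p 0.12). With the dsx label its sexes overlapped in thoraces (4.67 ± 1.15 CPM in females, 4.11 ± 0.769 CPM in males). In dsx-labelled abdomens every male (2.75 to 3.94 CPM) was above every female (1.37 to 2.29 CPM), the reverse of the GFP abdomens.

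Or1 in thoraces rested on 1 library. It held 0.730, 0.689, 0.761, 21.1 and 1.45 CPM in GFP female thoraces and 0.394 to 0.884 CPM in male ones. Female thorax 4 was the high one, and it also had the highest summed receptor level of the 10 thoraces (73.2 CPM against 31.2 to 60.4 CPM) and 0.907 CPM of OBP77 against at most 0.0552 CPM in the others. Its level of Lop1 was 0. The log2 fold change of -2.70 (SE 0.90, adjusted p 0.0234, edgeR) was -0.23 (adjusted p 0.786) without it, and the female-higher receptors in thoraces then went from 4 to 2 (Or141 and Or294). The call for Or1 was also lost without male thorax 4 (-2.55, adjusted p 0.0545) and with the replicate block (-1.18, adjusted p 0.29).

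In abdomens, Or72 held 0.551 to 0.983 CPM in GFP females and 3.09 to 4.98 CPM in GFP males (log2 fold change 2.61, SE 0.20, adjusted p 1.22e-10, edgeR). Or89 averaged 0.0644 ± 0.107 and 1.25 ± 0.390 CPM (4.58, SE 0.65, adjusted p 1.48e-06), although it was higher in female heads (-1.72, SE 0.31). Or296, male-higher in heads, was higher in female abdomens (1.29 ± 0.254 against 0.507 ± 0.136 CPM, -0.98, SE 0.21, adjusted p 0.000176). Or1 stood at 1.11 to 1.32 CPM in female abdomens and 0.0513 to 0.191 CPM in male ones (-3.20, SE 0.30, adjusted p 3.37e-09). Or17 held 0.640 to 2.53 CPM in the 5 female abdomens, 545 reads in all, and 0 reads in the 5 male abdomens. It was at least 195-fold higher in females against a floor of 3 reads over the group, which covers counting error only. Or17 was named after its values were seen. Syt1 stood at 33.6 to 51.3 CPM in female abdomens and 89.5 to 112 CPM in male ones, and its part in the receptor values was not tested.

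The odorant receptor genes that did not meet the choice leaned to females in heads as well. Of these 57 genes, 38 were tested in GFP heads, with a median log2 fold change of -0.45. There 11 were higher in females (28.9%, against 16% of all genes) and 1 in males (2.63%, against 17.8%). In dsx-labelled heads 15 of the 38 were higher in females (39.5%, against 14.3% of all genes) and 1 in males (2.63%, against 16.3%). Of 46 gustatory receptor symbols, 28 were tested in GFP heads, with a median log2 fold change of 0.02. Calls were 3 higher in males (10.7%, against 17.8% of all genes) and 3 higher in females (10.7%, against 16%). Of 3 odorant-binding protein symbols 2 were tested and 0 were called by edgeR, with 0 at an unadjusted p below 0.05. The other lists of chemosensory proteins, sensory neuron membrane proteins and ionotropic receptors matched 0 symbols and are not analysed here.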

How the data were processed

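Total RNA of Nasonia vitripennis was sequenced in paired reads (NovaSeq), as the labels' protocols state. The authors deposited 1 table of raw counts, whole numbers of reads per gene in 140 libraries (59.2 to 113 M counts each), not normalized. HISAT2 2.0.5 and HTSeq 0.6.1 are named in the submitters' processing notes, and no source used here gives their settings, the genome build or whether strand was used. Columns were matched to samples by the sample descriptions, with 0 left over.

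CPM was computed as counts over the column total. The quasi-likelihood test of edgeR 4.0.16 (R 4.3.3) was run per stage on 20 libraries in 4 groups, with TMM scaling, filterByExpr at a minimum count of 10 and Benjamini-Hochberg adjustment over all genes tested. Heads against other parts used 40 dsx-labelled libraries. Calls had an adjusted p below 0.05. A log2 fold change comes from this fit, on TMM-scaled counts with a prior count of 0.125, so in abdomens it can depart from the ratio of the CPM printed beside it. Alternatives were DESeq2 1.42.0, RLE factors, no filter, a replicate block, the leading component as a covariate, scaling on the receptors, fits of the 2 groups compared, and leaving out libraries. On simulated data for the sexes in GFP heads (12016 genes), 48% of 1.5-fold and 80% of 2-fold changes were recovered, and 5.19% of calls were false. The simulation changed 100 genes at each of these sizes, while 4104 of 12136 genes were called in the GFP heads. These rates therefore need not hold for that comparison or for the receptors.

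The receptors and lists were chosen with earlier results of these data known. Named genes were the 10 most abundant in GFP heads, the 8 largest sex differences without overlap in each direction, the calls for the dsx label and its interaction, the 5 nearest to another stage, the 5 highest in pupae, thoraces and abdomens, and 3 on each side of the minimum. Others were named after their values were seen. All 157 symbols matched the RefSeq table of assembly Nvit_psr_1.1, used for gene order and overlaps only. Of the marker lists, Lop1 (photoreceptor), Syt1 and Para (neuron) and 3 hexamerin genes (fat body) had a symbol, and muscle had 0. Sequences were not used here.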

Additional observations from a re-analysis of the deposited data

Results flagged for a closer look

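The effect of the dsx label differed between male and female heads for 5 receptors. The interaction was 1.69 for Or173, 1.15 for Or275, 1.12 for Or96, 0.80 for Or276 and -0.87 for Or296, on the log2 scale. The adjusted p (edgeR) was 0.00113, 0.00481, 0.0335, 0.0221 and 0.00168 in that order, and 4.1% of all genes were called in this comparison.

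Among the receptors named by the rule or for their values outside heads, there were 10 for which every GFP library of a sex lay above the other sex in heads and below it in another part or stage, a difference between parts that was not tested. The share of all genes that did so was not computed, so this number shows nothing particular to receptors. In thoraces the log2 fold change, male over female, was 2.33 for Or173, 2.46 for Or275, 4.07 for Or16 and 5.15 for Or19, all lower in male heads. In abdomens it was 1.17 for Or187, 2.66 for Or96, 4.58 for Or89 and 2.61 for Or72, also lower in male heads, and -0.98 for Or296, which was higher in male heads. In pupae it was -0.34 for Or162 and not called. Or72 was not called in heads. The remaining receptors were not checked in this way. Among them, as examples only, Or272 in abdomens (0.103 ± 0.0418 CPM in females, 0.972 ± 0.206 CPM in males) and Or114 in pupae (0.364 ± 0.0798 and 0.675 ± 0.0967 CPM) were called higher in males without overlap there and lower in males in heads. Or241 in abdomens was another (0.0432 ± 0.0319 and 0.163 ± 0.0575 CPM). Or134 and Or168 in abdomens and Or301 in pupae were called higher in females without overlap there and higher in males in heads.

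Single libraries lay far from the other 4 of their group in 15 of 210 groups checked, and chance flags about 1 in 20. In heads these were Or217 in GFP male 1 at 8.03 CPM, Or146 in GFP male 5 at 6.03 CPM and in dsx-labelled male 1 at 12.2 CPM, and Or71 in GFP female 4 at 0.722 CPM. The others in heads were Or35 in GFP female 4 at 7.07 CPM, Or191 in dsx-labelled female 1 at 2.79 CPM, Or269 in dsx-labelled male 1 at 0.104 CPM and Or286 in GFP male 2 at 0.331 CPM. In GFP pupae they were Or35 in female 1 at 2.06 CPM, Or191 in male 3 at 0.0122 CPM and Or192 in male 1 at 0.0484 CPM. The values of Or191 and Or192 rest on a few reads. The other 4 male pupae held 0 CPM of Or191 and at most 0.0122 CPM of Or192. In GFP thoraces they were Or1 in female 4 at 21.1 CPM and in male 4 at 0.394 CPM, and Or16 in female 4 at 0.137 CPM and in male 5 at 0.916 CPM.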

How the results depend on the processing

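Of the counts of called receptors, 678 values under the alternatives stayed within 1.5 times the value reported and 24 did not, and 0 results reversed. With libraries scaled on the summed receptor counts, the receptors higher in dsx-labelled males than females went from 22 to 36, and the interaction lost its 1 lower call (0). The receptors higher in dsx-labelled than GFP males went from 4 to 7 with the leading component as a covariate. Those lower went from 3 to 1 in the fit of the 2 groups and to 5 without the 3 male heads that stood apart. In females 1 receptor in place of 0 was higher with the dsx label under DESeq2, the leading component, receptor scaling, the fit of the 2 groups and without the 3 male heads. The interaction gave 2 lower calls in place of 1 under DESeq2, the leading component and without the 3 male heads. Female-higher calls in thoraces went from 4 to 8 with no filter on low counts. The cause was not tested.

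Leaving out 1 library at a time gave 1 to 4 lower calls for the label in males (1 without GFP male head 2 or 4 or dsx-labelled male head 2), 0 to 1 higher calls in females, 1 to 3 lower calls for the interaction and 2 to 6 female-higher calls in thoraces. The sex calls in GFP heads ran from 21 to 27 higher in males and 55 to 67 higher in females. Of the 86 calls in GFP heads, 70 to 86 were kept under the other alternatives, all in the same direction. Among single receptors, 88 values lost the threshold, 11 gained it and 3009 did neither. The calls for Or35, Or115 and Or286 between the sexes in GFP heads were among those lost most often, and Or72 was called in 6 alternatives (DESeq2 -0.63, adjusted p 0.0385).

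The replicate block gave 24 male-higher and 64 female-higher receptors in GFP heads. Same-numbered head libraries had correlations from -0.3 to 0.641, with 10 of 30 over 0.1, and 7 correlated best with their own number. Between dsx-labelled and GFP male heads the 5 values were 0.641, -0.285, 0.312, 0.317 and 0.299, with 3 best with their own number. The design gives no such pairing. Replicate 1 joins GFP male head 1 with dsx-labelled male head 1, which both stood apart in Syt1 and OBP77. Replicate 2 joins GFP male head 2, which stood apart, with a head that did not. These correlations cannot tell a pairing of replicates from the heads that stood apart, and neither was tested. With the block the label in males gave 4 higher and 4 lower calls, which included all 7 of the fit without it. The choice of receptors gave 160 genes with TMM-scaled CPM (155 shared), 146 at 0.5 CPM, 160 at 0.1 CPM and 158 from dsx-labelled libraries (151 shared). At 0.2 CPM a head library held under 20 reads of a gene, which limits the lowest receptors.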
